A study of Homo sapiens
Mus musculus with 16 samples.

Results

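Xenograft tumours from 4 mice given nab-paclitaxel together with phenelzine were compared with tumours from 4 mice given vehicle alone. These 8 libraries were taken by their sample titles from the 16 libraries of the series. Each mouse carried a tumour grown from 2 M (M, mega) MDA-MB-231 cells, an established human triple-negative breast cancer line, placed in the mammary fat pad of a Balb/c nude host in 50 µl of PBS and Matrigel. Nude mice lack a thymus and hence most mature T cells, so the host response seen here is that of an animal without a normal adaptive immune system. The combination mice received nab-paclitaxel (titled Abraxane in the labels) at 30 mg/kg on days 15, 22 and 29 and phenelzine at 40 mg/kg every day from day 15. The vehicle mice received injections of the carrier only, and all injections were intraperitoneal. Tumours were excised on day 50, 21 days after the last nab-paclitaxel dose. The other groups of the series, with 4 mice each, received 1 of the drugs alone, nab-paclitaxel or phenelzine, on the same schedules.

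Nab-paclitaxel is an albumin-bound form of paclitaxel, which stabilises microtubules and holds dividing cells in mitosis. Phenelzine irreversibly inhibits the monoamine oxidases, enzymes that break down amine neurotransmitters, and compounds of its class also inhibit a lysine-specific histone demethylase. In a xenograft the cancer cells are human and the vessels, fibroblasts and immune cells around them are mouse. Human genes therefore read the tumour cells and mouse genes the host tissue, as far as each read was given to the right species.

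Each library gave 1 column of whole-number counts in a matrix of human genes and 1 in a matrix of mouse genes. Human totals ran from 23.7 to 33.5 M counts in the vehicle libraries and from 11.1 to 28.8 M in the combination libraries. Mouse totals ran from 5.21 to 14.4 M with vehicle and from 6.60 to 27.4 M with the combination. Mouse genes took 13.6% to 37.8% of all counts with vehicle and 18.6% to 71.2% with the combination. The means were 21.1% ± 11.5 (SD, n = 4) and 48.3% ± 22.1 (SD, n = 4), which did not differ beyond the spread between mice (exact permutation test, two-sided p = 0.0857, where 0.0286 is the smallest p that 4 against 4 allows). In bulk tissue, more host cells and more RNA per host cell cannot be told apart. The 10 most abundant human genes held 5.23% to 6.54% of human counts with vehicle and 4.94% to 10.3% with the combination. Libraries of a group differed well beyond sampling noise, with a chi-square per degree of freedom of at least 45.2 in human and 25.3 in mouse genes. Each library comes from 1 mouse. The edgeR p-values below rest on a spread between mice that was pooled over the 16 libraries of all 4 groups. Fits that left out libraries pooled it over those that remained.

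The matrices identify genes by Ensembl ID and do not pair the IDs with symbols. The RefSeq table used here holds 0 Ensembl IDs, so 0 genes could be named and the 54 lists of pathway genes and cell type markers were not analysed. The labelled cell line and tissue could not be checked against their marker genes for the same reason. Genes are described below as groups and, for 2 that rose and 2 that fell, by ID.

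In the tumour cells, 97 of 18131 human genes rose and 36 fell with the combination (edgeR quasi-likelihood test, adjusted p under 0.05). Together these were 0.734% of the genes tested, 0.535% for the rises and 0.199% for the falls. The genes that rose had low levels in vehicle tumours, with a median vehicle level of 0.971 CPM (counts per M human counts) against 16.2 CPM with the combination. The genes that fell were more abundant, with a median of 63.4 CPM in vehicle tumours and 23.9 CPM with the combination. The rises were large, with a median log2 fold change of 3.38 and a range of 0.57 to 10.87. The falls were smaller, with a median of -1.30 and fitted values of -8.55 to -0.41 (-5.45 to -0.41 with genes at their bound). Genes without a count in one group have no exact fold, and 7 that rose and 2 that fell were therefore counted at a lower bound set by 3 counts per library. So counted, 90 of the 97 genes rose by more than 2-fold, 65 by more than 4-fold and 43 by more than 16-fold. Of the 36 that fell, 20 did so by more than 2-fold, 9 by more than 4-fold and 3 by more than 16-fold. The median log2 fold change over all 18131 genes was -0.0022.

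**Figure D1:**
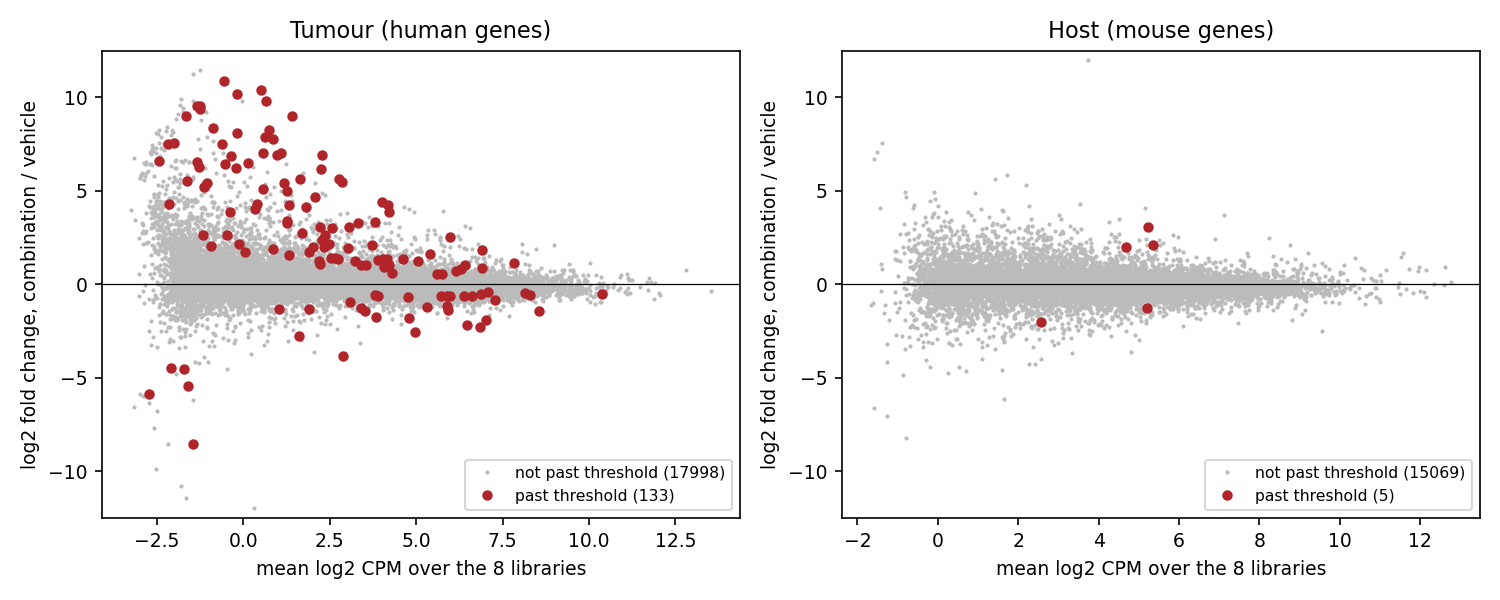
Log2 fold change of the combination against vehicle (vertical axis) against mean log2 CPM over the 8 libraries (horizontal axis) for 18131 human genes (left) and 15074 mouse genes (right); red points are the 133 human and 5 mouse genes with an adjusted p under 0.05, and 1 gene in each panel lies beyond the vertical range and is drawn at its edge. The human genes that rose reach 10.87 and those that fell reach -8.55 on the log2 scale, the latter a fitted value of a gene at 0 in all combination libraries.

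The number of genes called depended on single mice. It ran from 1 to 1388 when any 1 of the 8 libraries was left out. Without combination 2 it was 1388 and without combination 4 it was 557. Without vehicle 1 it was 1, without combination 3 it was 2, without vehicle 3 or vehicle 4 it was 4, without vehicle 2 it was 8 and without combination 1 it was 10. All 133 genes kept their sign in each of these 8 fits, but the fits share libraries with the one that chose the genes. The kept sign thus only describes them. In these fits 2587 to 5941 genes had an unadjusted edgeR p under 0.05. Many calls lay close to the threshold. In the main edgeR fit 44 genes had an adjusted p up to 0.0374 and 119 up to 0.0486. No gene passed in a fit of these 8 libraries alone with edgeR, where 2958 had an unadjusted p under 0.05. The main fit pooled the spread over all 4 groups, although the groups were not equally spread. Over all human genes tested the median SD of log2 CPM was 0.431 with the combination and 0.352 with nab-paclitaxel. It was 0.251 with phenelzine and 0.237 with vehicle. All 133 genes were called by DESeq2, which called 1459 in all, and 72 of them by limma-voom with quality weights, which called 111.

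Separation of the groups was seen in more genes than were called. The 4 combination libraries did not overlap the 4 vehicle libraries in 2032 human genes, 11.2% of those tested. The combination was higher in 961 of these (5.3% of those tested) and lower in 1071 (5.91%). Were the groups alike, each gene would separate in either direction with a probability of 0.0286, and genes are not independent. Of the genes called, 91 of the 97 that rose and all 36 that fell showed no overlap. They were called on these same libraries, so this only describes them. The direction differed between classes of expression level. The classes and the filter on low counts drew on the compared libraries too, and their part in this difference was not tested. Among the 4378 genes with a mean of 1 to 10 CPM over all 16 libraries, the combination was higher without overlap in 8.43% and lower in 3.91%. Among the 2402 genes with a mean of 100 CPM or more, it was higher without overlap in 2.29% and lower in 11.9%. The median log2 fold change went from 0.38 in the 3535 genes under 1 CPM to -0.16 in the genes at 100 CPM or more. Both kept their sign under each of the other 3 scalings tried, at 0.42 to 0.48 and -0.13 to -0.08, while the median of the 7816 genes at 10 to 100 CPM was -0.07 and turned to 0.02 with upper-quartile scaling. A change of scaling moved all classes by similar amounts, so it bears on these signs and cannot test the difference between classes.

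**Figure D2:**
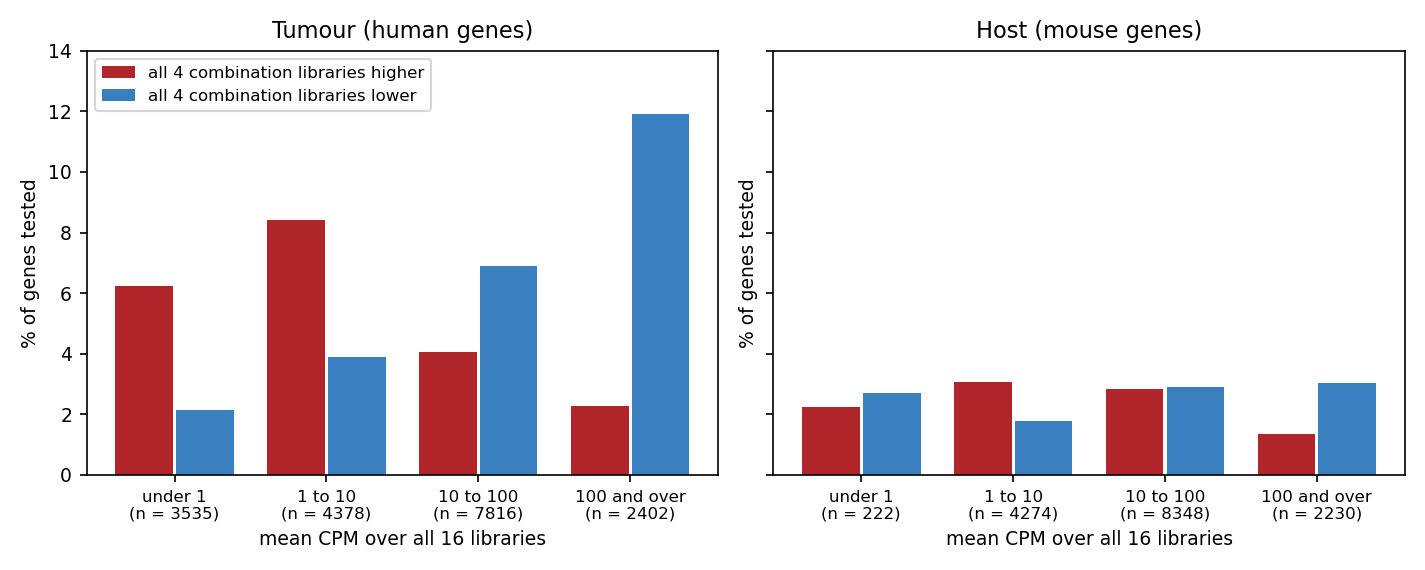
Share of tested genes (vertical axis, %) in which all 4 combination libraries lay above (red) or below (blue) all 4 vehicle libraries, by mean CPM over all 16 libraries (horizontal axis, number of genes in each class below it), for human genes (left) and mouse genes (right). In human genes the red bar is the taller up to 10 CPM and the blue bar from 10 CPM upwards, reaching 11.9% at 100 CPM or more; no host bar exceeds 3.07%.

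The 97 genes that rose did so to unequal degrees in the 4 treated tumours. Relative to the vehicle mean, their median log2 CPM was 3.76 higher in combination 1, 1.39 in combination 2, 3.89 in combination 3 and 2.12 in combination 4. The 4 vehicle libraries lay between -0.09 and 0.04 on the same measure. All 97 genes stood above every vehicle library in combination 1, 3 and 4, and 91 of them did in combination 2. Combination 1 was the highest of the 4 treated libraries for 52 genes and combination 3 for 42, while combination 2 was the lowest for 81. In 62 of the 97 genes every treated tumour lay more than 2-fold above the vehicle mean. The highest treated library exceeded the lowest by a median of 7.48-fold, against 1.83-fold among the vehicle libraries, where 26 genes with a 0 were left out.

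The unevenness was largest in the genes with the steepest rise. For the 46 with a fitted rise over 16-fold, the median difference from the vehicle mean was 6.41 log2 units in combination 1 and 6.28 in combination 3, against 1.99 in combination 2 and 3.45 in combination 4. For the 32 genes with a fitted rise under 4-fold the same 4 libraries gave 1.49, 0.82, 1.35 and 1.05. These fold classes were formed from the fitted fold change itself, so the values are a description. Mouse share and rise are set side by side here, and whether the share has a part in the unequal rise was not tested. The mouse share was 71.2%, 47.4%, 55.9% and 18.6% in combination 1 to 4, where the median rise of the 97 genes was 3.76, 1.39, 3.89 and 2.12 log2 units. In nab-paclitaxel 1 to 4 it was 59.7%, 23.4%, 21.0% and 41.9%, beside 3.68, 1.69, 2.60 and 3.54 log2 units. In vehicle 1 to 4 it was 13.8%, 37.8%, 19.0% and 13.6%, beside -0.09 to 0.04 log2 units. With the mouse share as covariate the median log2 fold change was 2.24 for the 97 genes and -0.98 for the 36. In that fit 2 of the 133 calls remained. All 133 kept their sign, which only describes them, as the fit used the libraries that chose them.

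No vehicle library held a count of 7 of the genes that rose. Against a floor of 3 counts per vehicle library they were at least 4.37- to 32.3-fold higher with the combination, where their means ran from 0.473 to 3.49 CPM. With these at their floor the median log2 fold change of the 97 genes was 3.27.

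The 36 genes that fell were lower by similar amounts in all 4 treated tumours. They were called on these same libraries, where a small fall passes more readily if the libraries lie close together. The evenness thus only describes them. Their median difference from the vehicle mean was -1.49 log2 units in combination 1, -1.03 in combination 2, -1.18 in combination 3 and -1.08 in combination 4. All 36 lay below every vehicle library in each of the 4 treated tumours, and 20 of them were lower by more than 2-fold in each library taken singly. In 15 genes the fall exceeded 2-fold in every treated tumour. The highest treated library exceeded the lowest by a median of 1.52-fold, against 1.46-fold among vehicle libraries, leaving out 5 genes with a 0 in a treated tumour. For the 10 with a fitted fall over 4-fold, the medians were -3.00, -2.99, -3.25 and -2.26 in combination 1 to 4. Their lower quartile was the same -3.98 in combination 1, 2 and 3. A gene at 0 takes a log2 CPM set by the prior count alone, which makes libraries alike. The class was also formed from the fitted fall, so these values are a description.

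**Figure D3:**
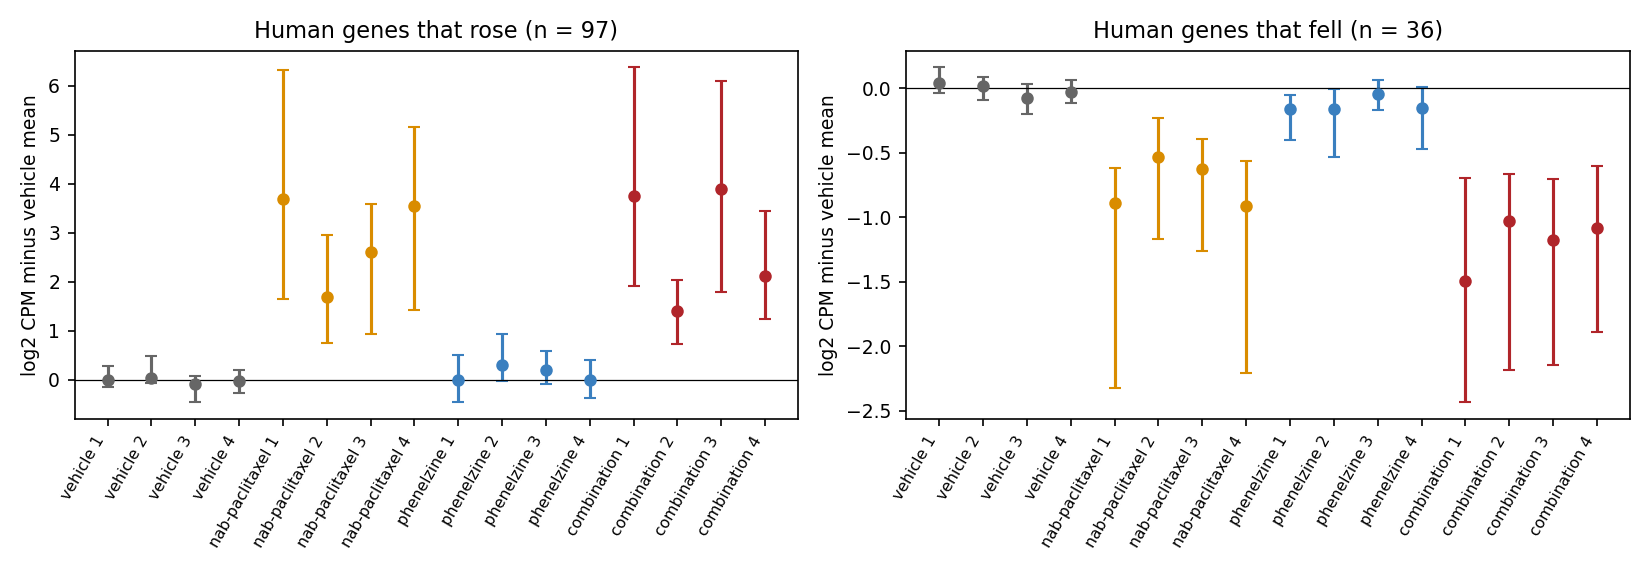
Median difference of log2 CPM from the vehicle mean (points) with the quartiles over genes (bars), for the 97 human genes that rose (left) and the 36 that fell (right) with the combination, in each of the 16 libraries (horizontal axis). Combination 1 and 3 lie above 3.7 on the left and combination 2 at 1.39, while on the right the 4 combination libraries lie between -1.49 and -1.03; the genes were chosen on the combination and vehicle libraries.

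The gene with the largest rise was ENSG00000160111. It had 0, 0.044, 0 and 0 CPM in vehicle 1 to 4 and 32.7, 0.196, 67.4 and 1.42 CPM in combination 1 to 4. The treated tumours were far apart, with combination 2 just above the single vehicle library in which the gene was counted. The vehicle libraries held 1 count together and the combination libraries 1606, a ratio of normalised counts of 2357 with an exact 95% counting interval of 422 to 93135 that ignores the spread between mice. The fitted log2 fold change was 10.87 (SE 2.17, edgeR adjusted p = 0.0436). It was 9.73 to 12.44 with 1 library left out, 7.24 with the mouse share as covariate, 6.17 with voom and 5.99 without the 4 libraries that stood apart in the series (nab-paclitaxel 1 and 4, combination 1 and 3). With nab-paclitaxel alone it stood at 23.3 ± 28.2 CPM and with phenelzine alone at 0.114 ± 0.0245 CPM (SD, n = 4 each). The call held without combination 2 (edgeR adjusted p = 0.0094) and without combination 4 (0.0293). It ended when any of the remaining 6 libraries was left out, at 0.0965 to 0.1427, and with voom (adjusted p = 0.2796).

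The gene with the largest fall among those of at least 5 CPM was ENSG00000173110. It stood at 32.2, 33.4, 22.0 and 34.0 CPM in vehicle 1 to 4 and at 1.55, 0.833, 1.40 and 4.56 CPM in combination 1 to 4. The groups were far apart, and combination 2 had the lowest level of all. The log2 fold change was -3.82 (SE 0.723, edgeR adjusted p = 0.0374). With nab-paclitaxel alone it stood at 3.89 ± 4.53 CPM and with phenelzine alone at 25.3 ± 8.49 CPM (SD, n = 4 each). The call held without combination 2 (edgeR adjusted p = 0.0217) and without combination 4 (0.0287). It ended when any of the remaining 6 libraries was left out, at 0.0957 to 0.1287.

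Other genes were picked for description after their values were seen. The rise with the lowest p was that of a gene at 0.677, 1.28, 0.760 and 0.450 CPM in vehicle 1 to 4 and 12.2, 4.17, 5.20 and 8.83 CPM in combination 1 to 4. Its log2 fold change was 3.26 (SE 0.410, edgeR adjusted p = 0.00844), and the call was lost without vehicle 1 (0.0705) and in no other fit that left out 1 library. Here all 4 treated tumours lay well above vehicle, without the gap between combination 1 and 3 and the others. The most abundant gene that rose had means of 159 ± 31.5 CPM with vehicle and 356 ± 120 CPM with the combination (SD, n = 4 each). Its values with the combination were 443, 181, 422 and 378 CPM, and combination 2 lay within the vehicle range of 128 to 189 CPM. The log2 fold change was 1.16 (SE 0.249, edgeR adjusted p = 0.0486). The most abundant gene that fell had means of 1599.6 ± 89.0 CPM with vehicle and 1098 ± 89.8 CPM with the combination (SD, n = 4 each). Its log2 fold change was -0.54 (SE 0.117, edgeR adjusted p = 0.0490). Its libraries ran from 969 to 1165 CPM with the combination and from 1528 to 1728 CPM with vehicle, so the groups lay apart. Both of these most abundant genes kept their call only without combination 2 or combination 4 among the 8 fits that left out 1 library (edgeR adjusted p = 0.1134 to 0.1505 in the rest).

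A pair of the genes that fell were listed at 0 in all 4 combination libraries. The first stood at 0.968, 2.02, 2.39 and 1.62 CPM in vehicle 1 to 4, at 0.754 to 2.44 CPM with nab-paclitaxel and at 1.04 to 2.53 CPM with phenelzine. The limit set by 0 counts was at most 0.274 CPM in a combination library. Against a floor of 3 counts per library the gene was at least 10.1-fold lower with the combination than with vehicle. Its call (edgeR adjusted p = 0.00844) held without any 1 of the 8 libraries, at 0.0054 to 0.0314, and ended in the fit of only the 2 groups (0.0728). The second averaged 0.273 CPM with vehicle and was at least 1.57-fold lower with the combination against the same floor. With these at their floor the median log2 fold change of the 36 genes was -1.25.

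The first principal component of the 8 human profiles held 54.9% of the variance and set combination 1 and 3 apart from the other libraries. Combination 1 and 3 scored 125 and 120 on it. Combination 4 scored -3.86 and combination 2 -43.1, and the latter fell within the vehicle range of -57.7 to -42.6. On the second component, with 10.9% of the variance, combination 2 scored 72.1 and combination 4 scored 23.1, and no other library exceeded 6.09. The correlation of log2 CPM across 18131 genes, which are not independent replicates, was 0.971 to 0.976 between vehicle libraries and 0.896 to 0.968 between combination libraries. The median gene had an SD of log2 CPM of 0.431 over the combination libraries and 0.237 over the vehicle libraries. The SD was the larger with the combination in 13966 of 18131 genes. In numbers of genes, 2918 lay more than 2-fold above the vehicle mean in combination 1 and 3247 in combination 3, against 910 in combination 2 and 1192 in combination 4.

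**Figure D4:**
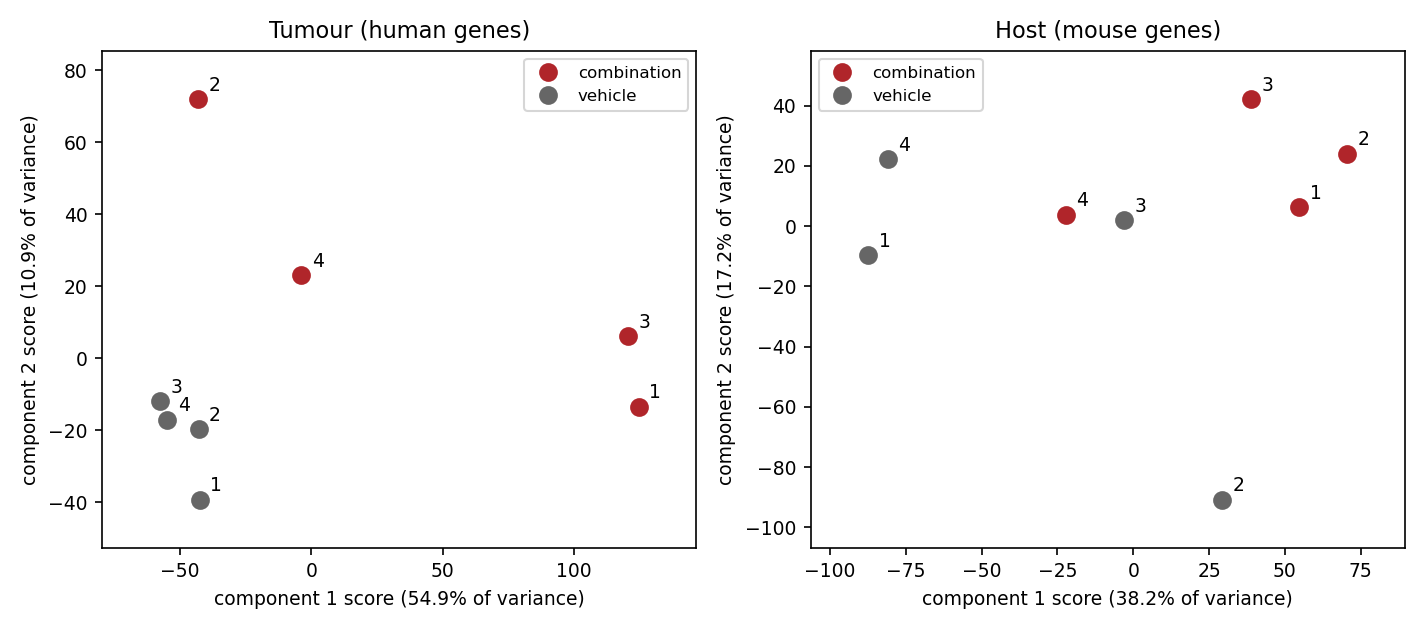
Scores of the 4 vehicle (grey) and 4 combination (red) libraries, numbered by mouse, on the first and second principal components of log2 CPM, with the share of variance on each axis, for human genes (left) and mouse genes (right). Combination 2 lies at the vehicle side of the first human component and apart on the second, and vehicle 2 stands alone at -90.8 on the second mouse component.

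Leaving out pairs or sets of libraries moved the human count in both directions. Without the 4 libraries that stood apart in the series (nab-paclitaxel 1 and 4, combination 1 and 3), 9 genes rose and 12 fell, and 11 of these were among the 133. Of the 133 genes, 131 were tested in this fit and all 131 kept their sign, though its libraries were among those that chose them. Without combination 2 and 4, 2866 genes rose and 2750 fell, and all 133 were among them. Both sets were chosen with values of these data known, the second after this comparison was seen. The 4 libraries of the first set had the highest median rises of the 97 genes, at 3.54 to 3.89 log2 units.

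Against the single drugs, the 133 genes were compared in the same fit; these comparisons share the vehicle or the combination libraries with the one that chose the genes, so their values are set side by side. The 97 genes that rose had a median log2 fold change against vehicle of 3.38 with the combination, 3.07 with nab-paclitaxel alone, where 0.165% of all genes and 19 of these were called, and 0.12 with phenelzine alone. The 36 that fell had medians of -1.30, -0.77 and -0.13. Per library, the 97 genes lay a median of 3.68, 1.69, 2.60 and 3.54 log2 units above the vehicle mean in nab-paclitaxel 1 to 4, and -0.01 to 0.30 in the phenelzine libraries. Tumours given nab-paclitaxel alone thus also lay apart from each other.

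The difference between the combination and nab-paclitaxel was tested directly. Of the 97 genes, 0 passed in that contrast, with a median log2 difference of 0.29 and a range of -1.34 to 2.37 (lowest edgeR adjusted p = 0.347). Of the 36, 1 passed: the first of the pair listed at 0 with the combination (edgeR adjusted p = 0.0111). Among all human genes tested that contrast called 0.00552%. Against phenelzine alone 75 of the 97 were higher with the combination and 26 of the 36 lower, where 2.27% of all genes were called. The interaction of both drugs called 0 of the 133 (lowest edgeR adjusted p = 0.0536, for that same gene listed at 0).

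In the host, the combination raised 3 of 15074 mouse genes and lowered 2 (edgeR quasi-likelihood test), together 0.0332% of those tested, 0.0199% for the rises and 0.0133% for the falls. All 5 showed no overlap between the groups, which only describes them, as they were called on these same libraries. Of all mouse genes 5.27% showed no overlap, 2.67% with the combination higher and 2.6% with it lower. Were the groups alike, each gene would separate in either direction with a probability of 0.0286, which belongs beside the 5.27%, and genes are not independent. The largest rise was that of ENSMUSG00000059824. It stood at 18.0, 15.6, 9.34 and 12.8 CPM (per M mouse counts) in vehicle 1 to 4 and at 117, 71.8, 198 and 70.9 CPM in combination 1 to 4. Every treated tumour lay more than 3-fold above the highest vehicle library, and combination 3 was the highest. The log2 fold change was 3.04 (SE 0.440, edgeR adjusted p = 0.0211). With phenelzine alone it stood at 55.6 ± 13.9 CPM and with nab-paclitaxel alone at 20.1 ± 11.8 CPM (SD, n = 4 each). The call held without combination 2 (edgeR adjusted p = 0.0417) and without combination 4 (0.0130). It ended when any of the remaining 6 libraries was left out, at 0.0546 to 0.0980.

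The second host gene that rose had 21.3, 27.5, 14.9 and 17.4 CPM in vehicle 1 to 4 and 109, 119, 72.9 and 50.0 CPM in combination 1 to 4. Combination 4 was the lowest treated tumour and still above every vehicle tumour, and the rise was 2.11 log2 units (edgeR adjusted p = 0.0204, SE 0.297). The third had 12.3, 15.95, 11.3 and 12.4 CPM with vehicle and 53.7, 60.6, 56.5 and 34.3 CPM with the combination, and the rise was 1.98 log2 units (edgeR adjusted p = 0.0204, SE 0.278). Combination 4 was the lowest of the treated libraries in each of the 3 genes. Against vehicle, the log2 fold changes of the 3 genes with phenelzine alone were 2.00, 1.01 and 1.31, none past the threshold (lowest edgeR adjusted p = 0.674). With nab-paclitaxel alone they were 0.54, -0.25 and 0.27 (lowest edgeR adjusted p = 0.622). Of the 3, only the second was past the threshold against nab-paclitaxel in the edgeR test (adjusted p = 0.00857, 0.0199% of all mouse genes called), with 0.0841 for ENSMUSG00000059824 and 0.0641 for the third. None passed against phenelzine (lowest edgeR adjusted p = 0.167) or in the interaction (lowest 0.597).

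The host gene with the largest fall was ENSMUSG00000052749. It stood at 12.1, 17.5, 7.81 and 9.98 CPM in vehicle 1 to 4 and at 2.34, 2.61, 2.61 and 4.48 CPM in combination 1 to 4. The highest treated tumour, combination 4, lay below the lowest vehicle tumour. The log2 fold change was -2.004 (SE 0.313, edgeR adjusted p = 0.0397). With nab-paclitaxel alone it stood at 4.44 ± 0.997 CPM and with phenelzine alone at 8.46 ± 2.28 CPM (SD, n = 4 each), and neither comparison of the combination with a single drug passed (edgeR adjusted p = 0.851 and 0.142). The call held without combination 4 (edgeR adjusted p = 0.0136) and ended when any of the remaining 7 libraries was left out, at 0.0599 to 0.2186.

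The other host gene that fell had 62.6, 58.8, 55.1 and 54.5 CPM in vehicle 1 to 4 and 20.8, 18.6, 23.2 and 33.7 CPM in combination 1 to 4. Treated and vehicle tumours lay far apart. With either drug alone it was not past the threshold against vehicle and stood at 61.7 ± 5.81 CPM with nab-paclitaxel and 66.7 ± 6.95 CPM with phenelzine (SD, n = 4 each). It was lower with the combination than with nab-paclitaxel (by -1.36 log2 units, edgeR adjusted p = 0.00755, SE 0.161) and than with phenelzine (-1.48, SE 0.162, edgeR adjusted p = 0.00307), where 0.00663% of mouse genes were called. The interaction was -1.57 (SE 0.226, edgeR adjusted p = 0.0775), the lowest p of any mouse gene there and short of the threshold.

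The host profiles differed from the tumour profiles in where the spread lay. The median SD of log2 CPM over mouse genes was 0.446 with vehicle and 0.326 with the combination, and it was the larger with the combination in 5092 of 15074 genes. Vehicle 1, 3 and 4 and combination 4 had 5.21 to 6.60 M mouse counts and the other 4 libraries 14.4 to 27.4 M. On the first component, with 38.2% of the variance, vehicle 1 and 4 scored -87.4 and -80.9, vehicle 3 -3.15 and vehicle 2 29.3, while combination 1 to 4 scored 54.8, 70.6, 39.0 and -22.2. Vehicle 2 (mouse share 37.8%) and combination 4 (18.6%) had the shares farthest from the rest of their groups and lay towards the other group on this component, and the part of the share in these scores was not tested. Without vehicle 2 there were 8 calls, of which 3 were among the 5. Without combination 4 there were 58, with all 5 among them. Without both libraries, an alternative chosen after the data were seen, 181 host genes rose and 413 fell, and all 5 genes were among them.

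Without vehicle 1, vehicle 3, vehicle 4, combination 1 or combination 3 no host gene passed (edgeR), with 1449 to 2172 at an unadjusted p under 0.05, and without combination 2 there were 2. With the mouse share as a covariate the count from edgeR was 0, and 1113 genes had an unadjusted p under 0.05. Fitted to only these 8 libraries the count was also 0, with 1362 such genes. DESeq2 called 287 host genes, among them all 5, and voom 3, of which 2 were among the 5. All 5 genes kept their direction in every fit that was run, which only describes them, as all fits share libraries with the main one. Over all mouse genes 2068 (13.7%) had an unadjusted p under 0.05, of which 944 were higher and 1124 lower with the combination, and in human genes 4058 (22.4%), of which 2440 were higher and 1618 lower.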

How the data were processed

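The authors deposited whole-number counts per Ensembl gene in a human and a mouse matrix, used here unchanged. The submitters' processing notes name the builds hg38 and mm10 and, without roles, edgeR, StringTie, Picard, HISAT2 2.04 and Trimmomatic 0.36. The division of reads between species, strand and annotation: not given in the sources used here. Each matrix was fitted separately in R 4.3.3 with edgeR 4.0.16 (filterByExpr with a minimum count of 10, TMM, a mean for each of the 4 groups, quasi-likelihood F test with 12 residual degrees of freedom), and p-values were Benjamini-Hochberg adjusted over all genes tested, with 0.05 as threshold. SEs are the size of the log2 fold change over the root of F. Log2 CPM had a prior count of 2. The code was tested on simulated data. Alternatives were DESeq2 1.42.0, voom with quality weights (limma 3.58.1), other scalings and filters, covariates and left-out libraries. IDs printed are, per species, the largest rise and fall among called genes with at least 5 CPM in the higher group and no overlap. The rule's condition on symbols, and its parts on gene lists, drug targets and genes of like pattern, were not applied. Members and lists were chosen with earlier results of these data known. Columns left unused numbered 0. Intervals and floors cover counting error only. Reads shared with near-identical genes or the other species were not assessed.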

Additional observations from a re-analysis of the deposited data

Results flagged for a closer look

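Of 38 groups of 4 values examined, 3 had 1 library far from the other 3 by Dixon's ratio, where chance gives about 1 in 20. ENSG00000160111 had 0.044 CPM in vehicle 2 and 0 in the other 3 vehicle libraries, a difference of 1 count. ENSG00000173110 stood at 22.0 CPM in vehicle 3, against 32.2 to 34.0 CPM in the rest of that group. ENSMUSG00000052749 stood at 4.48 CPM in combination 4, against 2.34 to 2.61 CPM in the rest of that group.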

How the results depend on the processing

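The human count of 133 stayed within 1.5 times under RLE scaling, upper-quartile scaling, no filter on low counts, a minimum count of 50 and voom. It moved to 1459 with DESeq2, 71 with library size as the only scaling, 2 when mouse share entered as covariate, 21 when the 4 libraries apart from the rest were left out, 0 in the fit of only the 2 groups, 5616 without combination 2 and 4 and 7 without combination 4 and vehicle 2. With 1 library left out it ran from 1 to 1388. The mouse count of 5 moved to 287 with DESeq2, 3 with voom, 0 when mouse share entered as covariate, 0 in the fit of only the 2 groups, 0 when the 4 libraries apart from the rest were left out, 16 without combination 2 and 4 and 594 without combination 4 and vehicle 2. It ran from 0 to 58 with 1 library left out, and the causes were not tested.

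The replicate number as a block gave 10 human and 2 mouse calls, of which 8 and 2 were among the main ones. Same-numbered vehicle and combination libraries deviated together with correlations of -0.09 to 0.13 in human and -0.09 to 0.26 in mouse genes, so the numbers were not taken as pairs. The difference in mouse share of 27.2 points ran from 19.6 to 37.1 points with 1 library left out (exact permutation p = 0.0571 to 0.171). It stayed short of the threshold on the logit scale. The p of 0.0571 came without combination 4, where every remaining combination share lay above every vehicle share. A higher share with the combination could thus give no smaller exact permutation p in that fit. The smallest of the 8 libraries compared, with 11.1 M (mega) human and 5.21 M mouse counts, and the smallest in the fit, a phenelzine library with 3.46 M mouse counts, limit what can be seen in genes of few counts.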
